A study of Homo sapiens with 6 samples.

Results

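Epithelial-mesenchymal transcription factors are DNA-binding proteins that switch off genes of epithelial cell contacts and switch on genes of migrating, matrix-producing cells. The genes described here were the zinc finger repressors SNAI1 and SNAI2, the zinc finger and homeodomain repressors ZEB1 and ZEB2, the basic helix-loop-helix (bHLH) factors TWIST1 and TWIST2, the paired-related homeobox factors PRRX1 and PRRX2, and VIM, which encodes the mesenchymal intermediate filament protein vimentin. They were taken by gene symbol, and all 9 were found among the 58735 genes of the count table. All 9 also passed the filter on low counts, which left 15341 genes to test; PRRX2 passed through its counts in control cells.

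RNA was compared between UE7T-9 cells, a human bone marrow-derived mesenchymal stem cell line, and a UE7T-9 SRRM4 KO line. SRRM4 is a neuronal splicing regulator. The control libraries are labelled wild type, and both groups were grown in DMEM. The KO line was made with a lentiviral CRISPR vector carrying 1 guide, selected with puromycin and grown from 1 cell per well, so it is 1 clone. SRRM4 protein was reduced in it but not absent, so the knockout is partial, and effects of clone, vector and selection cannot be told apart from those of lower SRRM4. Each group had 3 libraries of non-stranded mRNA-seq, and no label says that they came from separate cultures, so p-values measure the spread between these libraries, which may be technical.

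Library totals were 21496117 to 23868323 counts, and 3 counts in a library equal 0.123 to 0.139 CPM (counts scaled by library size and TMM normalization factors). SRRM4 had 0 counts in all 6 libraries, so its RNA does not check the labels at this depth. Among the control libraries, replicate 1 differed most: its chi-square per degree of freedom was 23.0 and 23.5 against replicates 2 and 3, which differed from each other by 5.64. The markers of mesenchymal stromal cells were all counted, at 45008 to 49471 summed CPM in control and 18177 to 20359 in KO libraries, and 5 of the 8 were called lower in KO cells. Of 10 epithelial markers, GRHL2 was at 0 everywhere, and the summed level was 2.55 to 3.76 CPM in control and 2.14 to 3.37 CPM in KO libraries. Haematopoietic markers (4 of 7 at 0) summed to 15.6 to 17.5 and 14.8 to 16.97 CPM, nearly all of it CD14 (mean 16.8 and 15.9 CPM), with PTPRC and HBB at no more than 2 counts in any library, neural markers (0 of 5 at 0) to 27.8 to 33.3 and 23.7 to 28.5 CPM, and endothelial markers (0 of 7 at 0) to 25.4 to 31.9 and 11.1 to 12.8 CPM, in control and KO libraries. The neural sum was mostly SYT1 (mean 24.7 and 22.9 CPM), and RBFOX3 and ELAVL4 had at most 4 counts in any library. Of 4 tested endothelial markers, 2 were called lower and 0 higher. These were TEK (mean 13.7 and 0.994 CPM) and KDR (9.42 and 3.11 CPM). PECAM1, CDH5 and CLDN5 had at most 4 counts in any library. The part of these marker classes in the results was not tested.

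In embryos, these factors act where cells leave an epithelium, as in gastrulation and in the neural crest, and in carcinomas they accompany invasion. SNAI and ZEB proteins bind E-box sequences in the promoters of genes such as CDH1, which encodes E-cadherin, and recruit corepressors. TWIST proteins bind DNA as dimers, often with E proteins, and ID proteins sequester E proteins without binding DNA. PRRX factors pattern the limb and face mesenchyme. In mesenchymal stem cells, which are not epithelial to begin with, several of these factors are part of the normal state, and TWIST1 is known for holding back osteoblast differentiation.

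The genes come as paralog pairs whose coding sequences share short identical runs, which is why the following stretches are shown: a read that falls wholly inside an identical run cannot be given to 1 gene of the pair. The stretches are coding strand sequences of 75 bases from GENCODE release 29 on GRCh38, and capitals mark the longest run of identical bases within the pair (for TWIST1 and TWIST2, 1 of 2 runs of that length). TWIST1 (chr7:19116925-19116999, minus strand) and TWIST2 (chr2:238848412-238848486, plus strand) are aligned in their bHLH coding region, and 65 of the 75 bases are identical.
TWIST1: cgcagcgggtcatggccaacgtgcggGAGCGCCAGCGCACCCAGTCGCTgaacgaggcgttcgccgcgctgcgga
TWIST2: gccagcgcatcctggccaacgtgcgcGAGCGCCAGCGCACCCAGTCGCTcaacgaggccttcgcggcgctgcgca
PRRX1 (chr1:170719896-170726288, plus strand) and PRRX2 (chr9:129719413-129720664, plus strand) are aligned over a stretch that crosses an intron in both genes, and 58 of the 75 bases are identical.
PRRX1: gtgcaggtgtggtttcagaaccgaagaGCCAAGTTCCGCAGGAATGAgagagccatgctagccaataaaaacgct
PRRX2: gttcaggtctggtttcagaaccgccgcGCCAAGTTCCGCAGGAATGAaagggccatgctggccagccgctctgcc
The longest shared run was 23 bases for TWIST1 and TWIST2, 20 for PRRX1 and PRRX2, 20 for ZEB1 and ZEB2 and 11 for SNAI1 and SNAI2. These runs make up a small part of coding sequences of 480 to 3717 bases.

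In SRRM4 KO cells 6 of the 8 transcription factors were lower and VIM was higher at an adjusted p under 0.05, while ZEB1 and SNAI1 did not pass. All 15341 genes were fitted together in edgeR's quasi-likelihood test, and p-values were adjusted over all of them by the Benjamini-Hochberg method. By adjusted p alone, 20.9% of all tested genes were lower and 20.7% were higher. A gene is called here when its adjusted p is under 0.05 and its log2 fold change (KO against control) lies beyond 1 in size. PRRX2, whose direction the low-count filter fixed, was the 1 member called lower, where 7.14% of all tested genes were. By edgeR 0 members were called higher, where 5.45% were. DESeq2 also called 1 lower and 0 higher, and at an unadjusted p under 0.05 edgeR had 7 members lower and 1 higher, where 24.7% of all tested genes were lower and 24.3% higher. The median log2 fold change of the 9 genes was -0.66, that of the 8 transcription factors -0.75 and that of all tested genes -0.01. The log2 fold change was negative for all 8 transcription factors. The KO libraries did not overlap the control libraries in 7 genes that lay lower and in VIM, which lay higher, where 25.9% of all tested genes lay lower without overlap and 25.9% lay higher. In bulk RNA, fewer cells with a transcript and less transcript per cell cannot be told apart.

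**Figure D1:**
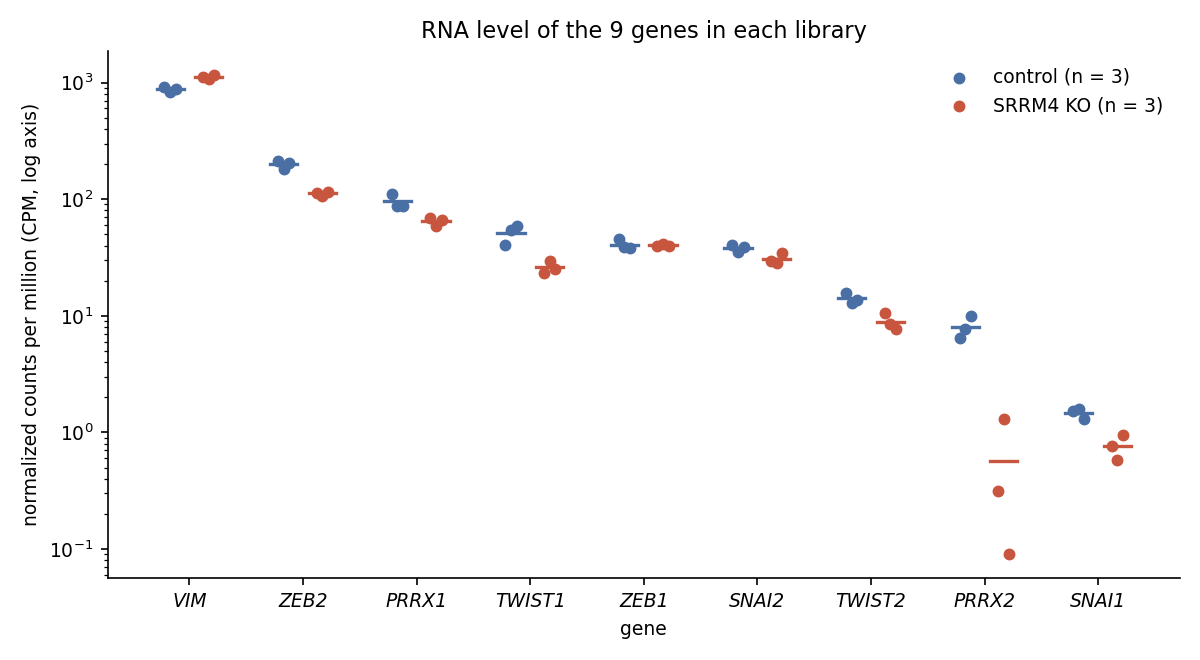
RNA level of each of the 9 genes, in normalized CPM on a log axis, with 1 point per library, 3 control libraries in blue and 3 SRRM4 KO libraries in red, and a line at each group mean. PRRX2 falls from 7.99 to 0.573 CPM with a wide spread among KO libraries, VIM lies higher in KO libraries, and the ZEB1 points of both groups overlap.

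The order of levels is given per kilobase of merged exons, since the genes differ in length from 1311 to 25058 bases. In control cells, VIM was at 170 CPM per kilobase, followed by TWIST1 at 25.2, PRRX1 at 11.6, SNAI2 at 11.3, ZEB2 at 7.93, TWIST2 at 7.51, PRRX2 at 6.09, ZEB1 at 4.72 and SNAI1 at 0.870. The ranges of PRRX1 and SNAI2 overlapped, as did those of ZEB2 and TWIST2, TWIST2 and PRRX2, and PRRX2 and ZEB1. In KO cells, the levels per kilobase were 218 for VIM, 12.8 for TWIST1, 9.08 for SNAI2, 7.81 for PRRX1, 4.74 for TWIST2, 4.64 for ZEB1, 4.47 for ZEB2, 0.453 for SNAI1 and 0.437 for PRRX2. There the ranges of TWIST2 and ZEB1, of ZEB1 and ZEB2, and of SNAI1 and PRRX2 overlapped. The merged length of ZEB2 covers 48 annotated transcripts, so its level per kilobase depends on which of them the cells use.

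PRRX2 (ENSG00000167157, chromosome 9, 129665641 to 129722674, plus strand) had the largest fall of the 9 genes. It was counted 140, 165 and 220 times in the control libraries and 7, 32 and 2 times in the KO libraries. PRRX2 passed the low-count filter through its control counts alone, which fixed its direction. With 10 counts required in every library it was not tested. Every KO library lay below every control library, and KO replicate 2 held most of the KO counts. The mean fell from 7.99 ± 1.73 CPM (SD, n = 3) to 0.573 ± 0.651 CPM (SD, n = 3). On the log2 scale the change was -3.75 with a standard error of 0.47 and an edgeR adjusted p of 1.33e-05, or 13.4-fold lower (95% interval 6.69 to 27.0). The size depended on that library: without KO replicate 2 the log2 fold change was -5.27, and without KO replicate 3 it was -3.27. Of the 79 tested genes that the count table assigns to the homeobox family, 13 (16.5%) were called lower, beside 7.14% of all tested genes. Among these 79, PRRX2 had the third largest fall. The gene on its right, PTGES, a prostaglandin E synthase, had a log2 fold change of -2.48 with an edgeR adjusted p of 2.14e-09. ASB6, on the left of PRRX2, was at -0.39 (edgeR adjusted p 0.0256). Over the 20 nearest tested genes around PRRX2 the median was -0.30, and 1 of them was called lower.

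PRRX1 (ENSG00000116132, chromosome 1, 170662728 to 170739419, plus strand), which shares the homeodomain of PRRX2, was counted 2422, 1886 and 1961 times in control and 1526, 1438 and 1445 times in KO libraries. The groups did not overlap. Its log2 fold change was -0.57 with a standard error of 0.11 and an edgeR adjusted p of 0.000568, which is 1.49-fold lower and does not reach the fold threshold. By CPM per kilobase, PRRX1 moved from place 2 among the 193 homeobox genes in control cells to place 9 in KO cells. PRRX2 moved from place 14 to place 65. Of 15 other paired-related homeobox genes, 4 passed the low-count filter, 0 were called in either direction, and their median log2 fold change was -0.35.

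TWIST1 (ENSG00000122691, chromosome 7, 19020991 to 19117672, minus strand) was counted 885, 1162 and 1320 times in control and 519, 712 and 557 times in KO libraries. Control replicate 1 was the lowest control library, and it still lay above all KO libraries. The mean went from 51.3 ± 9.44 to 25.9 ± 3.02 CPM (SD, n = 3 each). Its log2 fold change was -0.98 with a standard error of 0.14 and an edgeR adjusted p of 3.55e-05. This lies just short of the fold threshold: without control replicate 1 the value was -1.12, without KO replicate 2 it was -1.08, and TWIST1 was then called. TWIST2 (ENSG00000233608, chromosome 2, 238848032 to 238910543, plus strand), which can act as a repressor of osteoblast genes like TWIST1, was counted 342, 279 and 303 times in control and 234, 206 and 171 times in KO libraries. Its log2 fold change was -0.66 with a standard error of 0.16 and an edgeR adjusted p of 0.0035. The groups did not overlap for TWIST2 either. The gene to its right, HDAC4, a class II histone deacetylase, had a log2 fold change of -1.07 with an edgeR adjusted p of 2.37e-05. ASB1, to the left of TWIST2, was at -0.12 (edgeR adjusted p 0.335). Over the 20 nearest tested genes around TWIST2 the median was -0.29, with 3 called lower and 0 higher.

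ZEB2 (ENSG00000169554, chromosome 2, 144364364 to 144524583, minus strand) was the transcription factor with the most counts. It had 4612, 3876 and 4549 counts in control and 2520, 2604 and 2547 in KO libraries. The KO libraries lay close together and well below the control libraries, with means of 199 ± 17 and 112 ± 4.53 CPM (SD, n = 3 each). The log2 fold change was -0.83 with a standard error of 0.087 and an edgeR adjusted p of 1.99e-06, which is 1.78-fold lower (95% interval 1.56 to 2.02). ZEB1 (ENSG00000148516, chromosome 10, 31318495 to 31529814, plus strand), the paralog of the same domain structure, had 985, 834 and 856 counts in control and 879, 998 and 879 in KO libraries. Here the groups overlapped. The log2 fold change of ZEB1 was -0.02 with a 95% interval of -0.24 to 0.19 and an edgeR adjusted p of 0.871. As folds, the interval for ZEB1 runs from 1.18-fold lower to 1.14-fold higher.

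SNAI2 (ENSG00000019549, chromosome 8, 48917604 to 48921740, minus strand), also called Slug, was counted 870, 765 and 869 times in control and 655, 693 and 761 times in KO libraries. The highest KO library lay just below the lowest control library. Its log2 fold change of -0.31 had a standard error of 0.11 and an edgeR adjusted p of 0.0361, and it missed the threshold when control replicate 3 was left out (0.0957), and also when KO replicate 1 or KO replicate 2 was (0.15 for the latter). SNAI1 (ENSG00000124216, chromosome 20, 49982999 to 49988886, plus strand), or Snail, was the scarcest of the factors in control cells. It was counted 33, 34 and 29 times in control and 17, 14 and 21 times in KO libraries. The groups did not overlap, but the log2 fold change of -0.94 had a standard error of 0.43, a 95% interval of -1.86 to -0.02 and an edgeR adjusted p of 0.0946. With so few counts, the interval for SNAI1 reaches from almost no change to well beyond the fold threshold. The third family member, SNAI3, was at 0.876 CPM in control and 0.646 CPM in KO cells (log2 fold change -0.44, edgeR adjusted p 0.568).

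VIM (ENSG00000026025, chromosome 10, 17228259 to 17237593, plus strand) was the 1 gene of the 9 that was higher. It was counted 19690, 17944 and 19691 times in control and 25087, 26159 and 25677 times in KO libraries. All KO libraries lay above all control libraries. The log2 fold change was 0.36 with a standard error of 0.067 and an edgeR adjusted p of 0.000489, which is 1.28-fold higher (95% interval 1.16 to 1.42). VIM took 0.0817 to 0.0887% of all counts in control and 0.110 to 0.119% in KO libraries. By CPM per kilobase, it ranked between 119 and 149 among all genes in control libraries and between 95 and 105 in KO libraries.

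**Figure D2:**
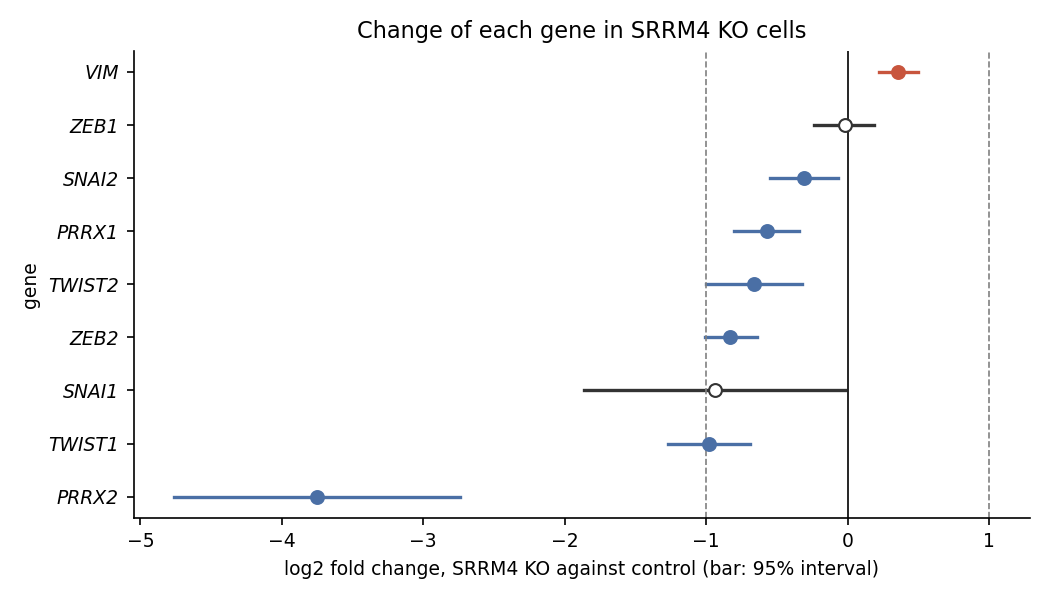
Log2 fold change of each gene in SRRM4 KO against control cells, with bars for the 95% interval of the edgeR fit (3 libraries a group) and dashed lines at the fold threshold of 1 in both directions. Filled blue points are lower and the filled red point is higher at an adjusted p under 0.05, and open points did not pass; PRRX2 at -3.75 is the one point whose whole interval lies beyond the threshold.

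The balance within each paralog pair was compared as the log2 ratio of their CPM per kilobase in each library, a measure that library scaling does not touch. An exact two-sided permutation test of 3 against 3 libraries cannot give a p below 0.10, and p-values were adjusted over the 4 pairs. ZEB2 made up 61.8, 61.6 and 64.7% of the ZEB pair in control and 49.7, 47.4 and 50.0% in KO libraries. The log2 ratio of ZEB2 to ZEB1 was 0.81 lower in KO cells (KO minus control -0.81, exact p = 0.10, adjusted 0.133), and it was lower in 3 of 3 KO libraries. PRRX2 made up 26.7, 35.5 and 41.4% of the PRRX pair in control and 2.80, 12.3 and 0.863% in KO libraries. Its log2 ratio to PRRX1 differed by -3.99 (exact p = 0.10, adjusted 0.133), a value that was -5.04 to -3.03 when each library was left out in turn.

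For the SNAI pair, SNAI2 made up 92.8 ± 0.963% in control and 95.3 ± 0.712% in KO libraries (SD, n = 3 each), a difference in log2 ratio of 0.65 (exact p = 0.10, adjusted 0.133). For the TWIST pair, TWIST2 made up 23.3 ± 5.34% and 27.2 ± 4.88% (SD, n = 3 each), the groups overlapped, and the log2 ratio differed by 0.30 (exact p = 0.40, adjusted 0.40). That difference ranged from 0.10 (without KO replicate 1) to 0.54 (without control replicate 1) when each library was left out in turn. So 3 of the 4 ratios did not overlap between groups, where 25.9% of all tested single genes lay lower and 25.9% higher without overlap. No such share was computed for other gene pairs, and none of the 4 ratios can pass the threshold at this number of libraries.

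**Figure D3:**
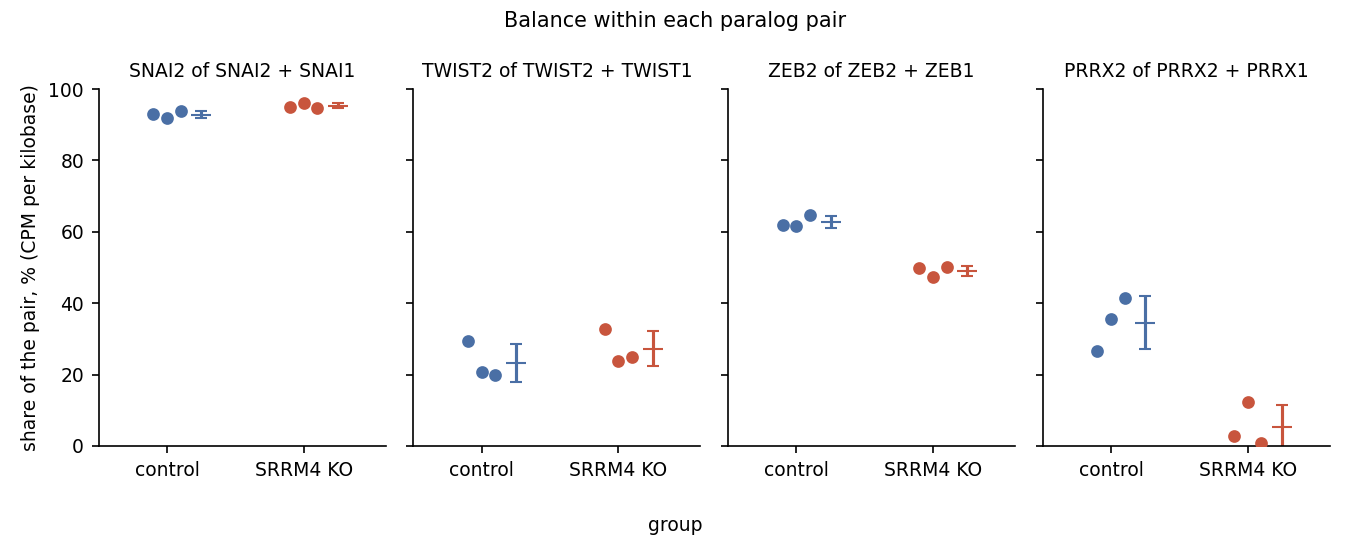
Share of the first-named paralog in its pair, in percent of the summed CPM per kilobase, with 1 point per library, 3 control libraries in blue and 3 SRRM4 KO libraries in red, and mean ± SD beside them (the lower end of the KO bar for PRRX2 is cut at 0). ZEB2 goes from 62.7 to 49.0% and PRRX2 from 34.5 to 5.32%, while the TWIST2 shares overlap.

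TWIST factors work through dimers, so their partners were examined next. The list of 3 E proteins (TCF3, TCF4, TCF12) and 4 ID inhibitors had a median log2 fold change of -1.97. In it, 5 of 7 genes were called lower and 0 higher, beside 7.14% and 5.45% of all tested genes. All 4 ID genes, transcriptional targets of BMP signalling, were among the 5. ID3 was counted 2907, 3836 and 4438 times in control and 497, 468 and 486 times in KO libraries, a log2 fold change of -3.01 ± 0.14 (standard error). ID4 was counted 1120, 1096 and 1079 times in control and 54, 47 and 86 times in KO libraries, a log2 fold change of -4.20 ± 0.19 (standard error). ID2 and ID1, which complete the count of 5 and were named after their values were seen, had log2 fold changes of -2.86 and -1.97. Control and KO libraries were far apart for each of these 4 genes. TCF4 was the fifth, with a log2 fold change of -1.08, and without control replicate 1 it fell short of the fold threshold at -0.98. TCF12 and TCF3 did not pass (log2 fold changes -0.11 and 0.15, edgeR adjusted p 0.362 and 0.225), and both are given to complete the list.

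Summed over genes, ID RNA was at 128, 161 and 168 CPM per kilobase in control and 19.1, 19.9 and 21.6 in KO libraries. E protein RNA was at 31.7, 28.9 and 30.2 in control and 27.3, 27.6 and 28.1 in KO libraries. Neither sum overlapped between groups, and the gap was much wider for the ID genes. The summed ID level was 4.04, 5.60 and 5.58 times the summed E protein level in control libraries. In KO libraries this ratio was 0.699, 0.722 and 0.769. The summed level of TWIST1 and TWIST2 was 28.5, 33.4 and 36.3 CPM per kilobase in control and 17.1, 18.9 and 16.6 in KO libraries. These are RNA levels and do not measure dimers. Among 7 bHLH genes related to TWIST, 3 passed the low-count filter, with a median log2 fold change of 0.04. MSC, a repressor of muscle genes also known as musculin, was the 1 called (log2 fold change -2.83, edgeR adjusted p 5.13e-09). Of all 52 tested bHLH genes in the table's own assignment, 7 (13.5%) were called lower and 2 (3.85%) higher, beside 7.14% and 5.45% of all tested genes.

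**Figure D4:**
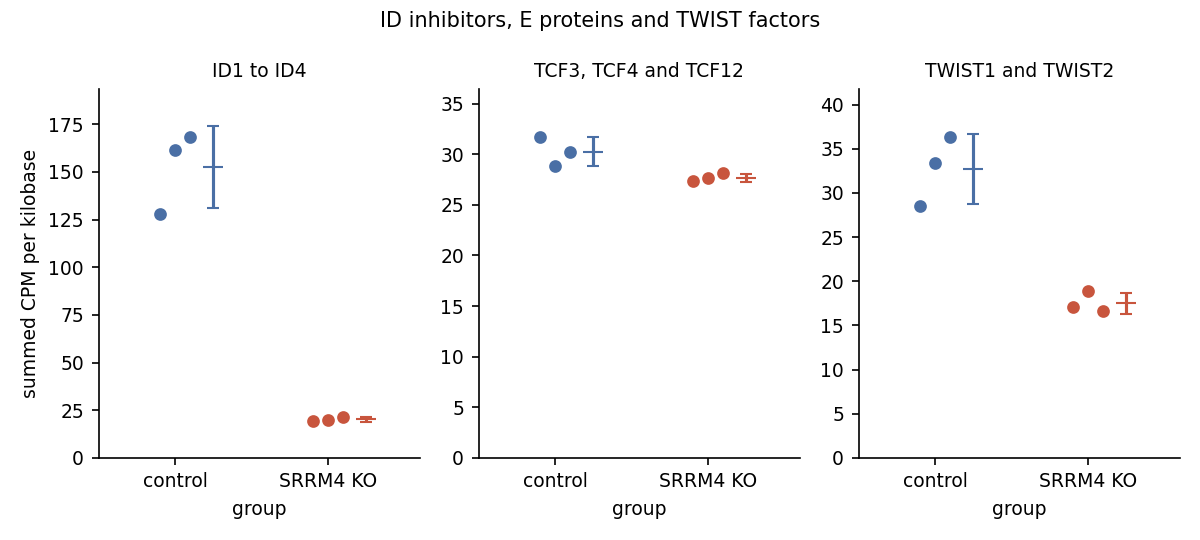
Summed CPM per kilobase of ID1 to ID4, of the E protein genes TCF3, TCF4 and TCF12, and of TWIST1 and TWIST2, each with its own linear axis from 0, 1 point per library (3 control in blue, 3 SRRM4 KO in red) and mean ± SD beside them. The ID sum goes from 128 to 168 in control libraries down to 19.1 to 21.6 in KO libraries, while the E protein sums of both groups lie between 27.3 and 31.7.

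The genes that these factors act on or together with were read from 13 lists with 150 tested genes, of which 10 (6.67%) were called higher and 21 (14.0%) lower. Over all tested genes, 5.45% were called higher and 7.14% lower. Genes of epithelial junctions include the classical targets of repression. Of 19 tested junction genes edgeR called 0 higher and 1 lower, with a median of -0.15 on the log2 scale. At an unadjusted p under 0.05, 6 were higher and 5 lower, beside 24.3% and 24.7% of all tested genes. DESeq2 called 1 higher, CLDN4, a tight junction claudin named after its value was seen, which had 31, 16 and 20 counts in control and 64, 60 and 26 in KO libraries (edgeR log2 fold change 1.08, adjusted p 0.056). In edgeR, CLDN4 was called with either other low-count filter (adjusted p 0.0356 and 0.0369), without control replicate 1 (0.0262) and without KO replicate 3 (0.0184). Without control replicate 2, edgeR called PKP3 higher (1.20, adjusted p 0.00267) and CDH3 lower (-1.21, adjusted p 0.0403), 2 junction genes named after their values were seen. CDH1 was counted 12, 11 and 39 times in control and 9, 13 and 12 times in KO libraries (log2 fold change -0.92, edgeR adjusted p 0.23), and EPCAM had at most 2 counts in any library and was not tested. The 1 gene called lower was DSC2, a desmosomal cadherin, at 24.4 CPM in control and 7.57 CPM in KO cells (log2 fold change -1.69, edgeR adjusted p 1.95e-07).

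Keratins, the intermediate filaments of epithelia, went both ways. Of 12 listed, 6 passed the low-count filter, and of these 3 were called higher and 0 lower by edgeR and by DESeq2 (1 was lower at an unadjusted p under 0.05), with a median log2 fold change of 0.75. Which keratins passed the filter decided this count, since KRT15 and KRT17 passed through their KO counts alone. KRT80 was counted 621, 612 and 720 times in control and 1788, 2012 and 1700 times in KO libraries (log2 fold change 1.43, edgeR adjusted p 1.88e-08). KRT15 and KRT17, keratins of basal epithelial cells, were scarce, with at most 10 counts in any control library and at most 65 in any KO library. Their log2 fold changes were 2.97 and 2.33, and with 10 counts required in every library neither was tested, which left 1 keratin called higher. KRT17 lost its call without control replicate 3 (edgeR adjusted p 0.0737) or without KO replicate 2 (0.107). Among keratins with lower levels in KO cells were KRT8 (log2 fold change -0.59, edgeR adjusted p 0.00674) and KRT19, both named after their values were seen. KRT19 was counted 10, 9 and 19 times in control and 0 times in each KO library, and it did not pass the filter. It was called lower with no filter (edgeR adjusted p 0.000232) and when control replicate 2 (0.00243), KO replicate 1 (0.00526) or KO replicate 3 (0.0047) was left out. Among 6 tested regulators of the epithelial state 1 was called in each direction, and the median was -0.17. TP63, the basal epithelial p63 factor, was higher (log2 fold change 1.18, edgeR adjusted p 0.0323), but it missed the threshold when control replicate 2 (0.117), control replicate 3 (0.116) or KO replicate 2 (0.155) was left out. GRHL3, a grainyhead factor of the skin barrier, was counted 12, 12 and 18 times in control and 0, 0 and 2 times in KO libraries, at least 4.86-fold lower against a floor of 3 counts per library. It passed the low-count filter through its control counts alone, which fixed its direction, and it was not tested with 10 counts required in every library.

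The mesenchymal effector list had 8 of 21 genes called lower and 1 higher, and its median log2 fold change was -0.86, with 18 of the 21 values negative. COL1A1, COL1A2 and COL3A1, the fibrillar collagens of bone and connective tissue, had log2 fold changes of -1.23, -1.70 and -1.48. The largest falls, named after their values were seen, were in POSTN, which encodes the matrix protein periostin (-3.65), in DCN, which encodes the collagen-binding proteoglycan decorin (-3.36), and in ACTA2, the smooth muscle actin of contractile cells (-3.26). COL5A1, also named after its value was seen, was another of the 8, at -1.05, and without KO replicate 3 it was at -0.98. TNC, which encodes the matrix glycoprotein tenascin-C, was called higher, at 98.1 CPM in control and 258 CPM in KO cells (log2 fold change 1.40, edgeR adjusted p 7.74e-09). The N-cadherin gene CDH2 (log2 fold change -0.69, edgeR adjusted p 7.32e-06) and the fibronectin gene FN1 (-0.97, 1.51e-08) were lower without reaching the fold threshold. FN1 crossed it when control replicate 2 (-1.0), control replicate 3 (-1.01) or KO replicate 1 (-1.01) was left out, TAGLN did without control replicate 1 (-1.05), and S100A4 was called without KO replicate 2 (-1.16), the last 2 named after their values were seen. VIM was therefore higher in the same libraries in which most of this list lay lower.

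Among 15 other tested transcription factors linked to the transition, 1 was called higher and 2 lower, with a median of -0.31. SOX9, the master factor of cartilage cells, was counted 109, 171 and 110 times in control and 393, 436 and 450 times in KO libraries (log2 fold change 1.65, edgeR adjusted p 3.69e-06). SOX4, which acts with TGF-beta signalling, had a log2 fold change of -1.25 (edgeR adjusted p 6.16e-08). GSC, the goosecoid homeobox gene of the embryonic organizer, had -1.17 (edgeR adjusted p 0.000151), and it was at -1.0, no longer beyond the threshold, without control replicate 2. FOSL1, an AP-1 factor, was at 0.98 and was called higher without control replicate 2 (1.02) or control replicate 3 (1.06). FOXQ1, a forkhead factor, was at -0.90 and was called lower without control replicate 1 (-1.05) or KO replicate 3 (-1.27). Both were named after their values were seen.

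Cofactors were read in the same way. Of 20 corepressor genes 1 was called higher and 0 lower, and 15 of 20 values were positive, with a median of 0.27. By adjusted p alone, 10 of the 20 were higher and 1 lower, beside 20.7% and 20.9% of all tested genes. The one called was SUV39H1, a histone H3 lysine methyltransferase of heterochromatin, at 8.91 CPM in control and 22.2 CPM in KO cells (log2 fold change 1.32, edgeR adjusted p 6.70e-06). Among 21 genes that act on the stability of SNAI, TWIST or ZEB proteins, the median was 0.06 and 1 was called: LATS2, a Hippo pathway kinase that phosphorylates SNAI1, at a log2 fold change of -1.05. In the TGF-beta input list 0 of 12 genes were called higher and 1 lower, with a median of -0.20. For the TWIST partner, TWIST-related, paired-related, stability and TGF-beta lists and the antisense and host genes, DESeq2 also called 0 higher. At an unadjusted p under 0.05, edgeR had 5 stability genes and 2 TGF-beta genes higher, and 0 in the other 4 lists, beside 24.3% of all tested genes. In the lower direction, where DESeq2 also called 0 paired-related, host or corepressor genes, the counts at an unadjusted p were 2, 1 and 1, beside 24.7% of all tested genes. The TGF-beta gene called lower was SMAD7, the feedback inhibitor that TGF-beta signalling itself induces (log2 fold change -1.23, edgeR adjusted p 2.98e-06). In edgeR's test against the fold threshold itself, SUV39H1 (adjusted p 0.108), LATS2 (0.942) and SMAD7 (0.197) were not called, which left 0 calls in these 3 lists.

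The genes of other intermediate filament proteins and filament linkers, the partners of vimentin, included 11 tested genes, 8 with positive values, and the median was 0.02. In this list 3 genes were called higher and 1 lower, beside 5.45% and 7.14% of all tested genes. By adjusted p alone, 4 were higher and 2 lower, beside 20.7% and 20.9% of all tested genes. In edgeR's test against the fold threshold itself, LMNB2 (adjusted p 1.0) and NEFM (0.126) were not called, which left 1 higher. Of the genes of earlier lists, KRT17 (0.185), TP63 (1.0), COL5A1 (1.0), GSC (0.684) and TCF4 (0.714) were not called by it either. LMNB2, a nuclear lamin, went from 126 to 263 CPM (log2 fold change 1.07), and without control replicate 1 its value was 0.92. The neurofilament genes NEFL and NEFM had log2 fold changes of 1.38 and 1.71. NES, which encodes nestin, a filament protein that assembles with vimentin, was counted 346, 493 and 485 times in control and 182, 160 and 135 times in KO libraries (log2 fold change -1.54, edgeR adjusted p 3.82e-06). DES, the muscle filament gene desmin, named after its value was seen, had 10, 46 and 24 counts in control and 1, 4 and 5 in KO libraries and did not pass the filter. It was a second gene called lower with no filter (edgeR adjusted p 0.000203) and when any library but control replicate 3 was left out (adjusted p 0.000672 to 0.0377).

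**Figure D5:**
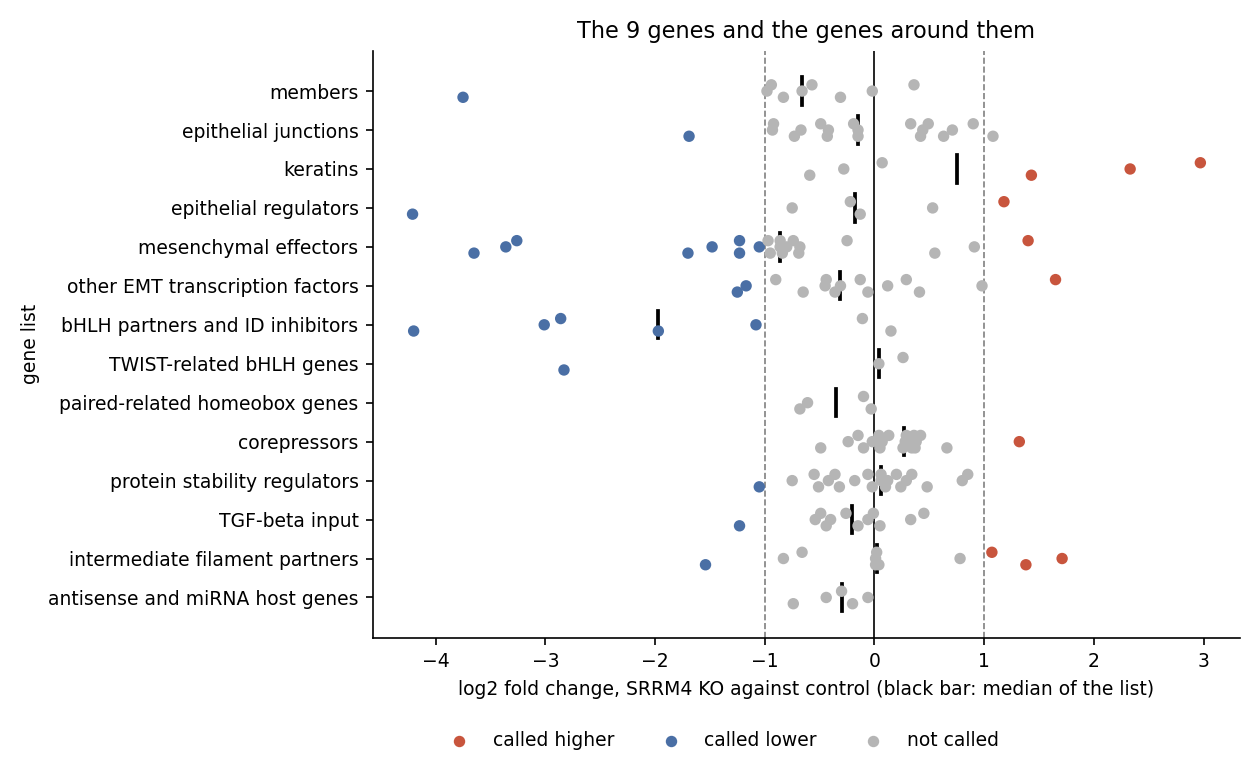
Log2 fold change (SRRM4 KO against control) of each tested gene of the 9 members and of the 13 lists, with 1 point per gene, a black bar at the list median and dashed lines at the fold threshold. Red points were called higher, blue points lower and grey points were not called; the bHLH partner list (median -1.97) and the mesenchymal effectors (-0.86) lie to the left.

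ZEB1 and ZEB2 are repressed by microRNAs of the miR-200 family and by miR-205, and in turn repress their genes. The mature sequences from RefSeq (GRCh38.p14) are shown because the host transcripts of these microRNAs were counted here. Capitals mark the seed, bases 2 to 8.
hsa-miR-200c-3p: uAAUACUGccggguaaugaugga
hsa-miR-141-3p: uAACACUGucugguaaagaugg
hsa-miR-205-5p: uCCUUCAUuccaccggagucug
The host gene of miR-200c and miR-141, MIR200CHG, and the host gene of miR-205, MIR205HG, had 0 counts in all 6 libraries. The microRNAs themselves were not measured. In the longest coding transcript of ZEB1, the 2552 bases after the coding sequence held 6 matches to the miR-200c seed, 3 to the miR-141 seed and 1 to the miR-205 seed. The 5373 bases after the coding sequence of ZEB2 held 5, 4 and 0. Such matches describe the letters only. Of the promoter windows of 300 bases from RefSeq, 20.6% of 35116 held CACCTG or its reverse complement CAGGTG, the E-box of SNAI and ZEB proteins. For 6 of the 9 genes 12 windows were given, 7 of them for ZEB1, and the 2 windows with the motif were both from ZEB1.

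The reads carry no strand, so reads of a gene and of an antisense neighbour on the same bases cannot be told apart. VIM-AS1 shares 641 exon bases with VIM and had 18 to 35 counts per library, against at least 17944 for VIM. ZEB1-AS1 shares 366 exon bases with ZEB1 and was counted 49, 88 and 54 times in control and 57, 57 and 34 times in KO libraries. ZEB2-AS1 shares 1299 exon bases with ZEB2 and had at most 4 counts. For TWIST1, the antisense gene AC003986.2 shares 141 exon bases and had 7 to 20 counts. Counts of all 4 antisense genes were small beside those of their partners. PRRX2-AS1 was at 0 in all libraries. Of the 9 antisense and host genes listed, 5 were tested and 0 were called.

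The median log2 fold change differed between chromosomes, and the genes were also read against it. It was -0.24 on chromosomes 2 and 9 and -0.25 on chromosome 7, which carry ZEB2 and TWIST2, PRRX2, and TWIST1. It was 0.04 on chromosome 1, 0.08 on chromosome 8, 0.07 to 0.08 on chromosome 10 (with VIM or ZEB1 itself left out) and 0.15 on chromosome 20. With the median of its chromosome subtracted, PRRX2 was at -3.51, TWIST1 at -0.73, ZEB2 at -0.58, TWIST2 at -0.42 and PRRX1 at -0.61. SNAI1 was then at -1.09, SNAI2 at -0.39, ZEB1 at -0.10 and VIM at 0.29. The directions were unchanged for these 9 genes. The values of TWIST1, TWIST2, ZEB2, PRRX2 and VIM were closer to 0, and those of SNAI1, SNAI2, ZEB1 and PRRX1 were further from it.

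For each gene, the 2 protein-coding genes whose log2 CPM followed it most closely over the 6 libraries are named as a description, out of those that averaged 100 counts or more. Libraries of 2 groups give high correlations to many genes, so the number of genes with a Pearson r above 0.95 is given too. PRRX2 was most like NIPAL4 (r = 0.999) and GLUL (r = 0.998), and 443 of 10786 genes passed 0.95. ZEB2 was most like PLPP3 and F2R, both with r = 0.999, and 1027 of 10785 genes passed. PRRX1 was most like PTPN13 and KCNT2 (463 genes passed), TWIST1 like TANGO2 and LIMK2 (361), TWIST2 like PDK3 and PI4KA (152), SNAI2 like DLD and COMMD7 (125), SNAI1 like GALM and CCDC81 (166) and VIM like ANKRD40 and SLC39A8 (898). ZEB1, whose groups overlapped, was most like ODR4 and RNF219, and 24 genes passed.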

How the data were processed

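The authors deposited raw read counts per gene, whole numbers without normalization, with gene lengths and coordinates. The submitters' processing notes list HISAT2 2.0.5, featureCounts 1.5.0-p3 and DESeq2. Build and annotation are not given in the sources used here. Coordinates and lengths of the 9 genes equal those of GENCODE release 29 (GRCh38). The handling of reads that match more than 1 gene is not given either.

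Samples were grouped by title and genotype. Counts were tested with edgeR 4.0.16 in R 4.3.3 (TMM, filterByExpr, prior count 0.125, quasi-likelihood test, Benjamini-Hochberg adjustment). The sources give no settings for the DESeq2 run, and its results were not used. Paralog ratios used an exact permutation test (scipy 1.17.1). On simulated counts for 15237 genes, edgeR called 198 of the 200 that had been given a log2 change of 2, and 3 unchanged genes. Smaller changes and the scarcest genes were not among these 200, so the simulation does not cover them.

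Members and gene lists were chosen with earlier results of these data known. From each list, at most the 3 called genes of highest mean CPM per direction were named, with CDH1, EPCAM, CDH2, FN1, SNAI3, nearest and overlapping genes, and the 2 genes most alike (log2 of CPM + 0.5); others are marked. Alternatives were DESeq2 1.42.0, other normalizations, filters and fold thresholds, a replicate block, left-out libraries and chromosome centring. The transcription factor family of a gene was read as deposited.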

Additional observations from a re-analysis of the deposited data

How the results depend on the processing

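The number of genes called was 836 higher and 1096 lower, and it became 360 and 577 with a test against the fold threshold itself and 3171 and 3213 without a fold threshold. Members called lower, 1 in the report, were 2 with upper-quartile normalization (TWIST1 at -1.01), 1 to 2 with each library left out in turn (2 without control replicate 1 and 2 without KO replicate 2, TWIST1 in each) and 6 without a fold threshold, where 1 was higher. Genes of the 13 lists called higher, 10 in the report, were 5 with the test against the threshold and 35 without it, and those called lower, 21 in the report, were 16 and 53. ZEB1 was between -0.07 and 0.06 with each library left out and changed sign without control replicate 1 (0.06, edgeR adjusted p 0.664). SNAI1 passed (edgeR adjusted p 0.0363) when every library had to hold 10 counts or more, a filter that also removed PRRX2 from the test, so that the 1 member called lower was then TWIST1 (-1.0, edgeR adjusted p 3.79e-05). Same-numbered libraries did not deviate together (correlations -0.055, 0.083 and -0.053), and 1 of 3 control libraries correlated best with its own number. With the replicate number as a block, 842 genes were called higher and 1093 lower, members 0 and 1, list genes 10 and 21, and SNAI2 no longer passed (adjusted p 0.0533); the block changed no other call of the 9 genes. Of the summary values, 104 kept their direction and their side of the threshold, or for counts stayed within 1.5 times, and the 12 given above did not. The ratio of TWIST2 to TWIST1 (0.10 to 0.54) and of PRRX2 to PRRX1 (-5.04 to -3.03) kept their direction but not their size. Among single genes and single lists 418 values did not move by that measure, 56 did, 4 fell short of the threshold (all SNAI2), 1 passed it (SNAI1) and 1 changed sign (ZEB1). Depth limits SNAI1, the KO counts of PRRX2 and GRHL3, and the control counts of KRT15 and KRT17.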
